A study of Homo sapiens with 12 samples.

Results

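The proteasome genes of HT29 cells were examined after 24 h with a water extract of *Aconitum carmichaeli* Debeaux (ACD), the root of a plant used in traditional medicine. They were taken as every protein-coding ID in the count table whose symbol begins with PSMA, PSMB, PSMC, PSMD, PSME, PSMF or PSMG followed by a digit. Of the 60675 gene IDs in the table, 50 met this rule, and 48 of them passed the filter on low counts among 15374 genes tested. HT29 is a single established line from a human colorectal adenocarcinoma. Vehicle was PBS with 2% DMSO. The low dose of the extract was 20 µg/mL, the medium dose was 100 µg/mL and the high dose was 500 µg/mL, and each of the 4 groups had 3 RNA libraries. The labels differ on the extract, since the titles give ACD and the protocol text gives *Poria cocos*, and the groups here follow the titles. No source used here states that the 3 libraries of a group came from separate cultures, so the p-values measure only the spread between these libraries, which may be technical.

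The proteasome is the barrel-shaped protease that degrades proteins tagged with ubiquitin. Its core is built of alpha subunits, which form the outer rings and gate the barrel, and of beta subunits, which form the inner rings and carry the catalytic sites. A cap binds the end of the core, where its ATPases unfold the substrate and its non-ATPase subunits bind ubiquitin and remove it. Interferon is known to induce the immunoproteasome, in which PSMB8, PSMB9 and PSMB10 replace the constitutive catalytic subunits PSMB5, PSMB6 and PSMB7 and which favours peptides for class I antigen presentation. PSME1 and PSME2 form an activator that can take the place of the cap. NRF1 (gene NFE2L1) and NRF2 (gene NFE2L2) are transcription factors known to act on proteasome genes through antioxidant response elements. In the intestinal epithelium, the proteasome is known for its part in NF-kB signalling, where it degrades the inhibitor of NF-kB.

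By these roles, 14 members were core subunits (7 alpha and 7 beta), 17 were cap subunits (6 ATPases and 11 non-ATPases), 5 belonged to the immunoproteasome, 7 were assembly factors and 3 were other regulators of the core (PSME3, PSME4 and PSMF1). PSMC3IP and PSME3IP1 carry similar symbols but encode binding partners and no subunits. The remaining 2 members, the testis alpha subunit PSMA8 and the thymus beta subunit PSMB11, had 0 counts in all 12 libraries. A count of 0 allows up to 3 counts, which is 0.0886 to 0.188 CPM depending on the library. CPM is the count scaled to the size of the library, and this limit covers counting error only. By the GRCh38 annotation of GENCODE release 44, PSMB8 (chr6:32840717-32844679) and PSMB9 (chr6:32844136-32859851) overlap on opposite strands, and PSME1 (chr14:24136163-24138967) and PSME2 (chr14:24143362-24147570) lie close together on opposite strands.

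Both kinds of known control can be looked for in the promoters. RefSeq windows of build GRCh38.p14, from 250 bases before to 50 bases after a transcription start, were available for 44 of the 50 members and for 15345 protein-coding genes. The core letters of the antioxidant response element, TGACNNNGC, were searched on both strands. They open with the same letters as an AP-1 site. They occurred in the windows of 15 members (34.1%) and of 18.0% of all genes. In the stricter form, with A after the last letter, they occurred in 9 members (20.5%) and in 4.04% of all genes, so the size of the contrast depends on the form searched. Stretches of 30 bases around a match to both forms are shown for a member of each kind, with the core letters in capitals. GCLM and TXNRD1, genes of glutathione and thioredoxin metabolism whose RNA rose with the extract, are shown for comparison. All are written 5′ to 3′ on the gene's own strand, and in PSMC5, PSME4, GCLM and TXNRD1 the capitals are the reverse complement of the core letters.
PSMA4 (alpha ring, chr15:78540650-78540679, plus strand): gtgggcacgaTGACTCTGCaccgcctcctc
PSMB3 (beta ring, chr17:38752627-38752656, plus strand): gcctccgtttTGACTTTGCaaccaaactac
PSMC5 (cap ATPase, chr17:63827654-63827683, plus strand): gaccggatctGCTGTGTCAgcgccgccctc
PSMD12 (cap non-ATPase, chr17:67366723-67366752, minus strand): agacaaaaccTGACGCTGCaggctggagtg
PSME4 (activator, chr2:53971008-53971037, minus strand): cccggcggctGCAGCGTCAccagcagagcc
GCLM (chr1:93909445-93909474, minus strand): tacgatttctGCTTAGTCAttgtcttccag
TXNRD1 (chr12:104286920-104286949, plus strand): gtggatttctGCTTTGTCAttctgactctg

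Core letters of the interferon-stimulated response element, GAAANNGAA, were searched in the same way. They are shared with the sites of several interferon regulatory factors. They occurred in the windows of 8 of the 44 members (18.2%) and of 9.24% of all genes, and with A after the last letter in 7 members (15.9%) and 4.18% of all genes. In either form, 4 of the 5 immunoproteasome genes held them. These 4 are shown because interferon is known to raise them, and in PSMB8 and PSME1 the capitals are the reverse complement.
PSMB8 (chr6:32844031-32844060, minus strand): atctgtggctTTCGCTTTCacttcctcctc
PSMB10 (chr16:67936852-67936881, minus strand): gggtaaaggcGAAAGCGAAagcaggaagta
PSME1 (chr14:24136190-24136219, plus strand): ccctaccgctTTCGCTTTCccttcgcggtg
PSME2 (chr14:24146619-24146648, minus strand): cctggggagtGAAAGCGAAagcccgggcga
A match is a description of letters and does not show that a factor bound there.

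The libraries held 15941255 to 33866644 expected counts, with a median of 23833237. High-dose replicate 2 was the smallest library and stood apart from the others. Across 10589 genes, its log2 expression fell with transcript length by a slope of -0.212 per doubling of length, against -0.111 in vehicle replicate 1 and -0.003 to 0.05 in the other libraries. The markers of colon epithelium summed to between 10960 and 13146 CPM in all libraries, and those of immune, fibroblast and vessel cells to between 10.6 and 15.4 CPM with 1 of 10 genes at 0. Of the latter, CD68 was higher at the high dose (log2 fold change 0.57), and its part in the results was not tested.

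High-dose replicate 2 was the highest of the 12 libraries in 38 of the 48 tested members, whereas it was the highest in 30.8% of all genes tested. It lay above the mean of high-dose replicates 1 and 3 in 45 members (93.8%), against 49.7% of all genes, and the median log2 difference was 0.58 with a range of -0.29 for PSME4 to 1.19 for PSMA2. The difference was larger in short transcripts. The median was 0.68 in the 24 members with transcripts of 762 to 1470 nucleotides and 0.31 in the 24 members with transcripts of 1518 to 8154 nucleotides, and Pearson's r with log2 length was -0.48 across the 48 members, which are not independent replicates. The 3 members below 0 were PSME4, PSMF1 and PSMD3, and the first 2 of these have the longest transcripts of the list. Whether the length pattern of this library accounts for its high values was not tested. The fold changes of the members named at the high dose are therefore given with and without it.

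**Figure D1:**
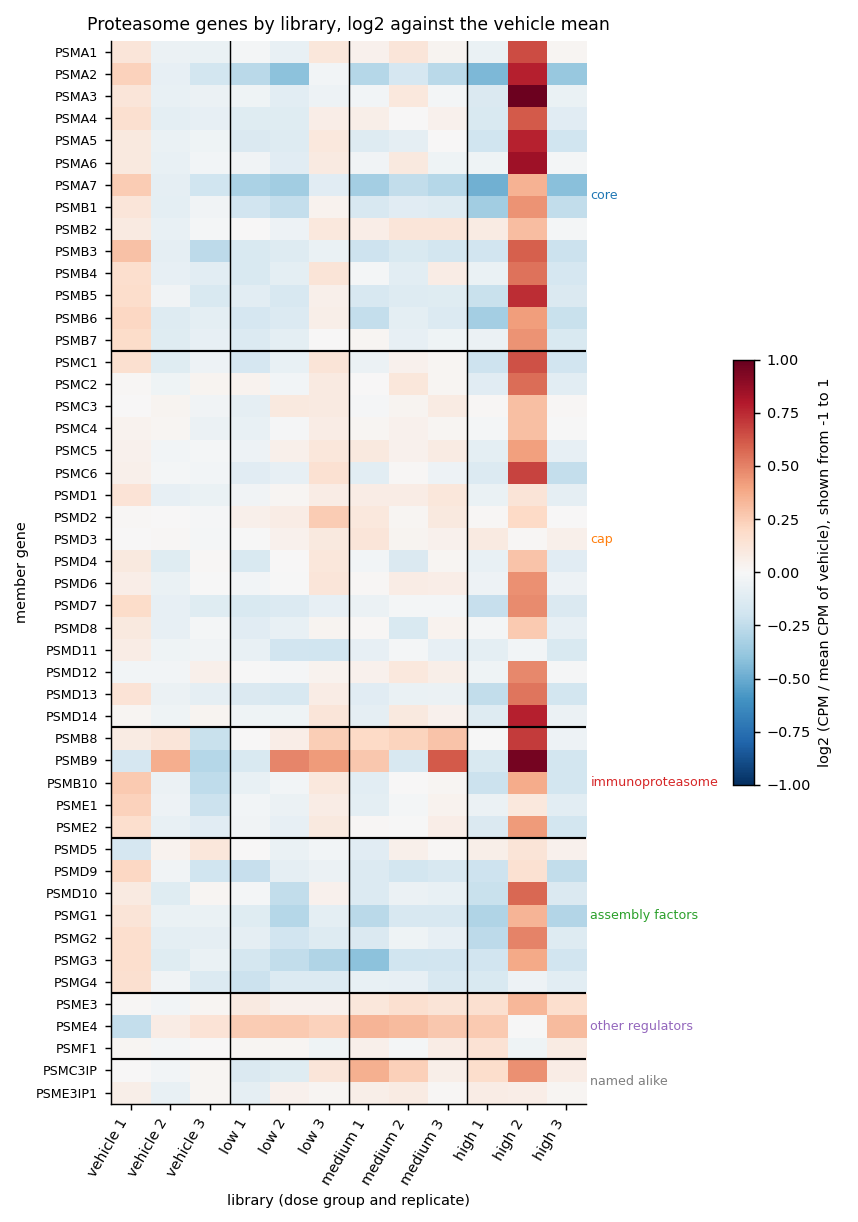
Each cell gives the log2 ratio of a member's CPM in 1 library (columns, by dose group and replicate) to its vehicle mean, with the 48 tested members in rows by part. High-dose replicate 2 is red in most rows and was the highest library in 38 of them, whereas PSME4 and PSMF1 are not raised there.

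**Figure D2:**
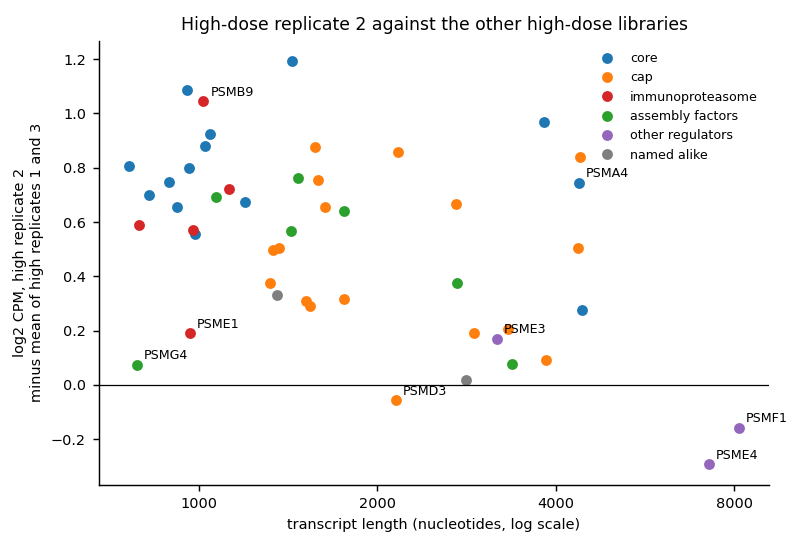
Each point is 1 of the 48 tested members, with transcript length in nucleotides on a log axis and, on the other axis, the log2 CPM of high-dose replicate 2 minus the mean of high-dose replicates 1 and 3. Short transcripts lie higher, with a median of 0.68 against 0.31 in the longer ones, and PSME4 and PSMF1 lie below 0.

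Levels were compared between genes as CPM per kilobase of transcript in vehicle, which was 6.14 at the median of all genes tested. The core subunits had a median of 102, from 34.2 in PSMA5 to 369 in PSMA7. The cap had a median of 72.0, from 16.4 in the ATPase PSMC1 to 169 in the non-ATPase PSMD8. Levels within the immunoproteasome spanned 134-fold. The activator subunits PSME1 and PSME2 stood at 106 and 101, close to the core median, whereas the catalytic subunits PSMB10, PSMB8 and PSMB9 stood at 30.4, 8.09 and 0.788. The assembly factors had a median of 26.4, from 9.54 in PSMD9 to 87.6 in PSMG2. In every library each of these 3 catalytic subunits was below the constitutive subunit that it replaces, with ratios given further on.

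With all libraries, none of the 48 tested members passed an adjusted p of 0.05 at the high dose in edgeR's quasi-likelihood test with Benjamini-Hochberg adjustment, where 5.77% of all genes did. One member had an unadjusted p under 0.05, and DESeq2 on all libraries called 1, which was PSME3 in both cases. The log2 fold change of the members had a median of 0.10, against 0.01 for all genes, and ranged from -0.13 in PSMA7 to 0.35 in PSMA3. It was above 0 in 39 members and below 0 in 9. The 95% interval lay within a 1.5-fold change in either direction for 40 of the 48. In bulk libraries, less RNA per cell and fewer cells with that RNA cannot be told apart.

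The direction turned once high-dose replicate 2 was left out. The median log2 fold change was -0.10, with 10 members above 0 and 38 below, against a median of -0.01 for all genes. At the high dose, 6 of the 48 members then passed the test (12.5%), where 18.7% of all genes did. PSMA7, PSMA2, PSMB1 and PSMG1 were lower (8.89% of all genes were), and PSME3 and PSME4 were higher (9.83%). The share of members called was below that of all genes in both fits. No member also passed a fold change of 1.5 in either fit, where 2.93% and 4.9% of all genes did. The turn was smaller in further fits added once the data had been seen. With vehicle replicate 1 also left out, the median was -0.04, with 14 members above 0 and 34 below. With high-dose replicate 2 left out and an offset for transcript length and GC content, the median was 0.00, with 24 members above 0 and 24 below.

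**Figure D3:**
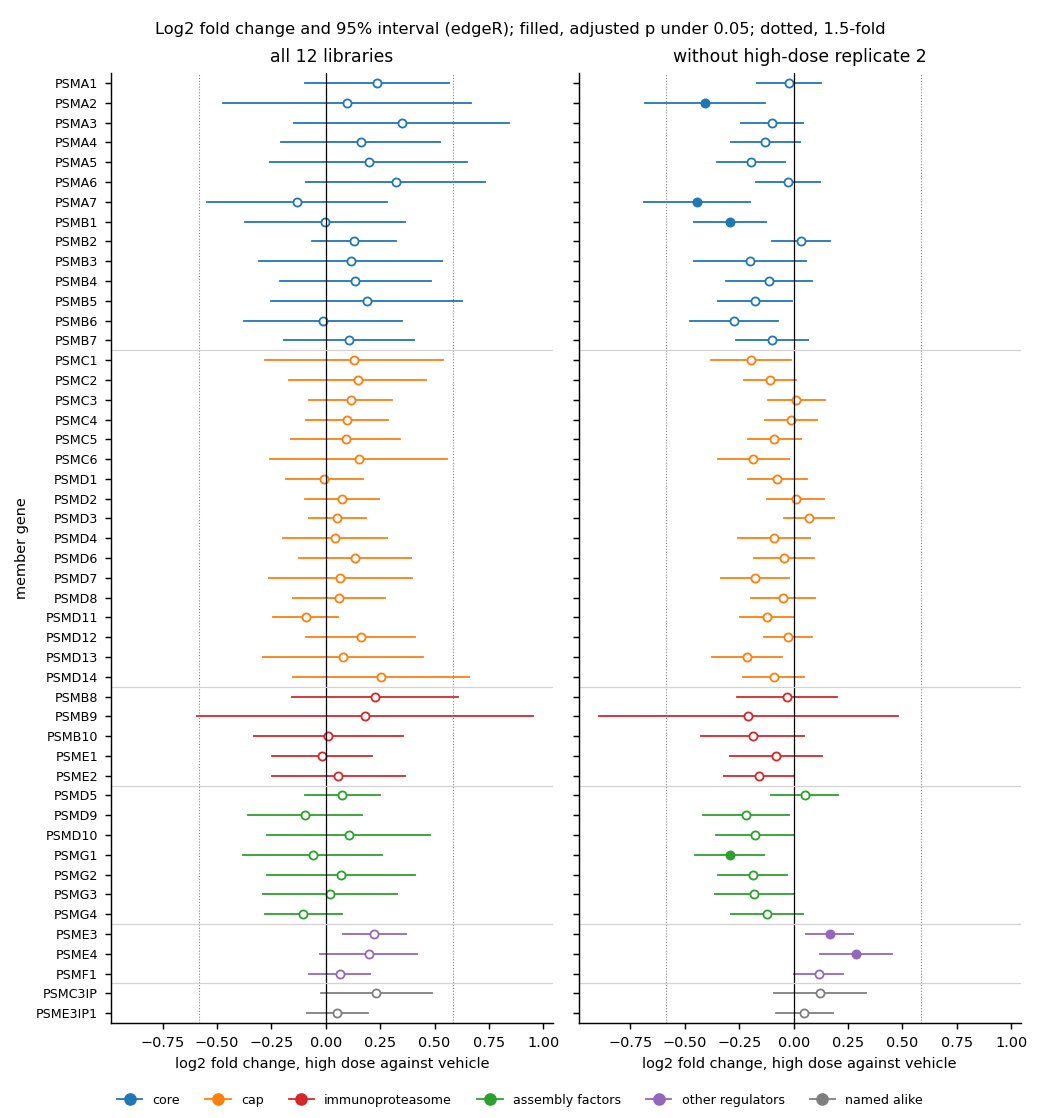
Log2 fold change at the high dose against vehicle with its 95% interval (horizontal axis) for the 48 tested members (vertical axis, coloured by part), with all 12 libraries on the left and without high-dose replicate 2 on the right. Filled points passed an adjusted p of 0.05, which was the case for 0 members on the left and 6 on the right, and the dotted lines mark a 1.5-fold change.

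Among the core subunits, the median log2 fold change at the high dose was 0.13 with all libraries and -0.15 without high-dose replicate 2. The alpha subunit PSMA3 had the highest value. It stood at 91.0, 79.4 and 80.3 CPM in the vehicle libraries, 81.1, 77.6 and 80.5 at the low dose, 82.1, 89.7 and 82.6 in the medium-dose libraries, and 75.6, 165 and 79.8 at the high dose. High-dose replicate 2 lay far above the other 11 libraries, and the log2 fold change of 0.35 ± 0.23 (SE, n = 3 and 3; edgeR adjusted p = 0.439) became -0.10 ± 0.07 without it. Errors of log2 fold changes are SEs throughout.

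The lowest value was that of PSMA7, the most abundant alpha subunit. It stood at 422, 333 and 309 CPM in vehicle, 285, 278 and 327 at the low dose, 280.1, 299 and 290.2 in the medium-dose libraries, and 254, 452 and 266 at the high dose. Every medium-dose library and high-dose replicates 1 and 3 lay below every vehicle library, while high-dose replicate 2 lay above them. The log2 fold change was -0.13 ± 0.19 (edgeR adjusted p = 0.77) with all libraries and -0.45 ± 0.11 (adjusted p = 0.0165) without high-dose replicate 2. Vehicle replicate 1, the other library with a steep slope on length, was the highest of its group, and with both libraries left out the value was -0.30 (edgeR adjusted p = 0.0026).

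PSMA2, another alpha subunit, and PSMB1, a beta subunit without a catalytic site, were called lower at the high dose only once high-dose replicate 2 was left out. The medium-dose libraries of PSMB1 also lay below all vehicle libraries, and those of PSMA2 overlapped them. PSMA2 stood at 178, 143 and 133 CPM in vehicle, 126, 114 and 149 at the low dose, 125, 135 and 126 in the medium-dose libraries, and 111, 260.3 and 117 at the high dose, and its log2 fold change moved from 0.10 to -0.41 ± 0.13 (edgeR adjusted p = 0.0444). PSMB1 stood at 198, 169.6 and 177 CPM in vehicle, 159, 154 and 186 at the low dose, 162, 168 and 166 in the medium-dose libraries, and 143, 248 and 153 at the high dose, and its value moved from 0.00 to -0.29 ± 0.08 (adjusted p = 0.0162). With vehicle replicate 1 also left out, PSMB1 was still called (-0.23, edgeR adjusted p = 0.0298) and PSMA2 was not (-0.28, adjusted p = 0.0851). With high-dose replicate 2 left out and an offset for transcript length and GC content, neither was called. PSMB1 was then at -0.08 (edgeR adjusted p = 0.258) and PSMA2 at -0.23 (adjusted p = 0.0725).

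None of the 3 constitutive catalytic subunits passed the test at the high dose in either fit, where 5.77% and 18.7% of all genes did. PSMB5, which cuts after hydrophobic residues, stood at 92.9, 80.3 and 74.0 CPM in vehicle, 76.7, 73.8 and 85.3 at the low dose, 73.6, 75.4 and 75.6 in the medium-dose libraries, and 70.6, 138 and 74.5 at the high dose. PSMB6, which cuts after acidic residues, stood at 93.0, 73.9 and 75.3 CPM in vehicle, 71.8, 73.3 and 84.2 at the low dose, 68.5, 75.4 and 73.3 in the medium-dose libraries, and 63.8, 108 and 69.0 at the high dose. PSMB7, which cuts after basic residues, stood at 168, 136 and 140.0 CPM in vehicle, 135, 138 and 149 at the low dose, 150.4, 139.7 and 144 in the medium-dose libraries, and 143, 203 and 133 at the high dose. In all 3 genes, high-dose replicate 2 was the highest of the 12 libraries. High-dose replicates 1 and 3 both lay below every vehicle library in PSMB6, whereas 1 of them did so in PSMB5 and in PSMB7. The log2 fold changes at the high dose were 0.19 ± 0.20, -0.01 ± 0.17 and 0.11 ± 0.14, and without that library they were -0.18 ± 0.08, -0.27 ± 0.10 and -0.10 ± 0.08.

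None of the 17 cap subunits passed the test at any dose with or without high-dose replicate 2. Of all genes, 0.124% passed at the low, 1.01% at the medium and 5.77% at the high dose, and 2.03%, 6.87% and 18.7% without that library. At the high dose, 0 of the 17 had an unadjusted p under 0.05 with all libraries and 4 without that library, and DESeq2 on all libraries called 0. The median log2 fold change was 0.09 with all libraries and -0.09 without it. With all libraries, the 6 ATPases were above 0, and PSMC6 had the highest value, 0.15 ± 0.19, and PSMC5 the lowest, 0.09 ± 0.12. Without high-dose replicate 2, 5 of the 6 were below 0, from -0.20 in PSMC1 to 0.01 in PSMC3, and PSMC6 and PSMC5 were at -0.18 ± 0.08 and -0.09 ± 0.06. PSMC6 stood at 54.1, 51.6 and 51.2 CPM in vehicle, 48.3, 49.4 and 58.2 at the low dose, 48.5, 52.7 and 50.6 in the medium-dose libraries, and 47.6, 83.4 and 44.4 at the high dose. PSMC5 stood at 127, 121 and 122 CPM in vehicle, 119, 127 and 133 at the low dose, 132, 127 and 130.5 in the medium-dose libraries, and 115, 163 and 116 at the high dose. In both genes the replicates 1 and 3 of the high dose lay below vehicle and replicate 2 above it.

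Of the non-ATPases, PSMD14, the enzyme that removes ubiquitin chains from the substrate, stood at 93.6, 89.5 and 94.0 CPM in vehicle, 89.9, 89.5 and 100.3 at the low dose, 86.7, 98.7 and 95.03 in the medium-dose libraries, and 84.5, 159 and 88.5 at the high dose, which gave the highest log2 fold change of 0.25 ± 0.19, and -0.09 ± 0.07 without high-dose replicate 2. PSMD11, a subunit of the lid, had the lowest, -0.09 ± 0.07 (-0.12 ± 0.06 without that library), with 283, 261 and 262 CPM in vehicle, 256, 235 and 234 at the low dose, 254, 265 and 254 in the medium-dose libraries, and 251, 263 and 242 at the high dose. Its low-dose libraries lay below the vehicle libraries, and its high-dose libraries overlapped them. PSMD3, also of the lid, was nearly level in all libraries, with 153 to 156 CPM in vehicle and 156 to 165 at the high dose.

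The question for the immunoproteasome was whether its genes moved together with the dose. With all libraries, 0 of the 5 passed the test at any dose, and this was also so without high-dose replicate 2. Of all genes, 0.124% passed at the low, 1.01% at the medium and 5.77% at the high dose, and 2.03%, 6.87% and 18.7% without that library. At these shares, a count of 0 among 5 genes does not set them apart. At the high dose, 0 of the 5 had an unadjusted p under 0.05 in either fit, and DESeq2 on all libraries called 0. The median log2 fold change was 0.06 with all libraries and -0.16 without that library. PSMB8, which replaces PSMB5, stood at 9.63, 9.88 and 7.78 CPM in vehicle, 9.14, 9.51 and 10.8 at the low dose, 10.42, 10.6 and 11.1 in the medium-dose libraries, and 9.10, 14.8 and 8.79 at the high dose. Its medium-dose libraries lay just above the vehicle libraries, and at the high dose replicates 1 and 3 were back within the vehicle range. The log2 fold change at the high dose was 0.23 ± 0.18 (edgeR adjusted p = 0.526) and -0.03 ± 0.11 without high-dose replicate 2.

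PSMB9, which replaces PSMB6, was close to the limit of detection. It had 13 to 34 counts per library and stood at 0.715, 1.03 and 0.659 CPM in vehicle, 0.721, 1.13 and 1.07 at the low dose, 0.964, 0.718 and 1.23 in the medium-dose libraries, and 0.720, 1.56 and 0.707 at the high dose. The groups overlapped at every dose. Its log2 fold change of 0.18 at the high dose had a 95% interval of -0.59 to 0.95. Without high-dose replicate 2 the sign turned, with -0.21 and an interval of -0.90 to 0.48, and differences within these intervals were not detectable at this depth.

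PSMB10, which replaces PSMB7, stood at 35.7, 28.5 and 24.9 CPM in vehicle, 28.2, 29.1 and 31.9 at the low dose, 27.5, 29.8 and 30.2 in the medium-dose libraries, and 25.6, 38.5 and 26.1 at the high dose, with a log2 fold change of 0.01 ± 0.16 at the high dose and of -0.19 ± 0.11 without high-dose replicate 2. Every group lay within or overlapped the vehicle range. The activator subunit PSME1 stood at 120.1, 98.4 and 87.7 CPM in vehicle, 100.0, 98.0 and 108 at the low dose, 95.3, 101 and 105 in the medium-dose libraries, and 97.9, 109.9 and 94.7 at the high dose (log2 fold change -0.02 ± 0.11, and -0.08 ± 0.10 without that library). Its partner PSME2 stood at 90.2, 76.1 and 74.3 CPM in vehicle, 78.4, 75.8 and 86.0 at the low dose, 81.0, 80.0 and 84.0 in the medium-dose libraries, and 72.5, 108 and 70.8 at the high dose (0.06 ± 0.14, and -0.16 ± 0.08 without it). In PSME2, high-dose replicates 1 and 3 lay below every vehicle library and replicate 2 lay above them. PSME1 was the immunoproteasome gene least raised in high-dose replicate 2.

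A ratio of 2 genes within a library does not depend on how the libraries were scaled. As a percentage of PSMB5 per kilobase, PSMB8 was at 9.63, 11.4 and 9.76% in vehicle, 11.1, 11.98 and 11.8% at the low dose, 13.1, 13.1 and 13.6% in the medium-dose libraries, and 11.96, 9.97 and 10.96% at the high dose. The medium-dose libraries lay above all vehicle libraries, and the high-dose libraries overlapped them. The log2 ratio was 0.09 higher at the high dose than in vehicle (exact permutation test, two-sided, p = 0.5, where 3 against 3 libraries cannot go below 0.1). PSMB9 was at 0.821 ± 0.271% of PSMB6 in vehicle and at 0.971 ± 0.176% at the high dose (SD, n = 3; log2 difference 0.26, exact p = 0.4). PSMB10 was at 20.1 ± 1.94% of PSMB7 in vehicle and at 19.0 ± 0.823% at the high dose (log2 difference -0.08, exact p = 0.4). The 3 log2 differences were 0.16, 0.15 and -0.09 with high-dose replicate 2 left out.

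**Figure D4:**
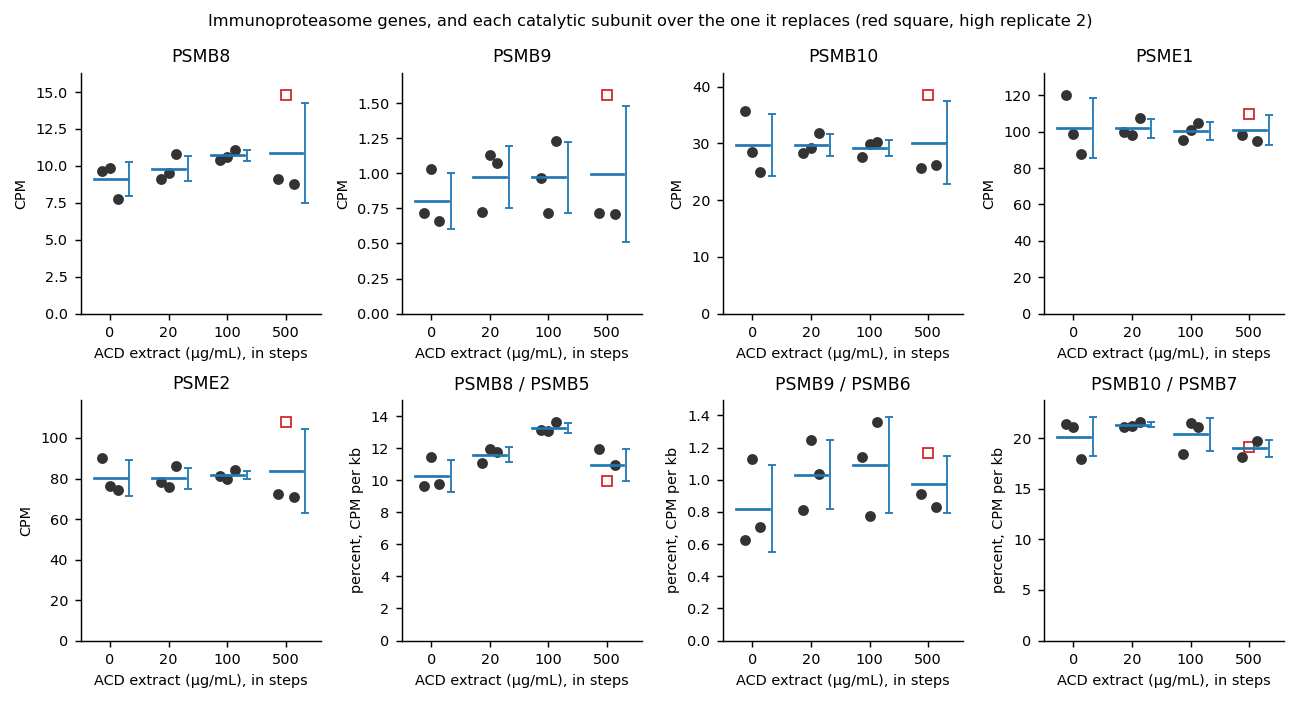
CPM of the 5 immunoproteasome genes and, in the last 3 panels, the level per kilobase of PSMB8, PSMB9 and PSMB10 as a percentage of the subunit each replaces, over vehicle (0) and the doses in µg/mL. Points are libraries, the red square is high-dose replicate 2, the lines are means of 3 and the bars are SDs. The range of the high-dose libraries overlaps that of the vehicle libraries in every panel. In PSME2, high-dose replicates 1 and 3 lie below every vehicle library and replicate 2 lies above them.

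Of the assembly factors, PSMG1 to PSMG4 help to build the alpha ring, and PSMD5, PSMD9 and PSMD10 hold the ATPases before they are fitted to the cap. Their median log2 fold change was 0.02 at the high dose and -0.18 without high-dose replicate 2. At the low and the medium dose, where high-dose replicate 2 does not enter the means, all 7 were below vehicle, with medians of -0.14 and -0.10. Vehicle replicate 1 was the highest vehicle library in each of them except PSMD5, which raises the vehicle mean. PSMG2, for example, stood at 105, 87.8 and 87.9 CPM in vehicle and at 84.9, 91.1 and 88.7 at the medium dose. None of the 7 passed the test at these doses in either fit, and DESeq2 on all libraries also called 0. Of all genes, 0.124% and 1.01% passed with all libraries, and 2.03% and 6.87% without high-dose replicate 2. An unadjusted p under 0.05 was seen in 0 of 7 at both doses with all libraries, and in 3 at the low and 2 at the medium dose without high-dose replicate 2. PSMG1 stood at 56.6, 49.4 and 49.6 CPM in vehicle, 47.7, 42.5 and 48.4 at the low dose, 43.0, 46.4 and 46.5 in the medium-dose libraries, and 42.0, 65.7 and 42.3 at the high dose. All low-dose and medium-dose libraries and high-dose replicates 1 and 3 lay below all vehicle libraries. The log2 fold change of -0.06 ± 0.15 at the high dose became -0.29 ± 0.08 (edgeR adjusted p = 0.0121) without high-dose replicate 2, and -0.23 (adjusted p = 0.0195) with vehicle replicate 1 also left out.

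PSMD10 had the highest value of the class at the high dose, 0.10 ± 0.17 (-0.18 ± 0.09 without high-dose replicate 2), with 33.6, 28.9 and 32.0 CPM in vehicle, 31.1, 26.6 and 32.5 at the low dose, 28.7, 30.3 and 30.0 in the medium-dose libraries, and 27.0, 47.0 and 28.5 at the high dose. PSMG4 had the lowest, -0.10 ± 0.08 (-0.12 ± 0.08 without it), with 35.6, 31.0 and 28.9 CPM in vehicle, 27.4, 28.9 and 28.9 at the low dose, 30.2, 30.1 and 28.5 in the medium-dose libraries, and 28.7, 30.7 and 29.5 at the high dose. High-dose replicate 2 stood far above its group in the first gene and within 1.05-fold of it in the second.

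The other regulators bind the core by themselves. PSME3, a nuclear activator that does not need ubiquitin, was called in the dose trend with all libraries. It stood at 259.9, 253 and 261 CPM in vehicle, 274, 266 and 265 at the low dose, 279, 287 and 282 in the medium-dose libraries, and 288, 325 and 289.6 at the high dose. Every treated library lay above every vehicle library, and each dose group lay above the one before it with no overlap. The log2 fold change at the high dose was 0.22 ± 0.07, with a 95% interval of 0.08 to 0.37, a fold change of 1.17 and an edgeR adjusted p of 0.0762. It was 0.17 ± 0.05 without high-dose replicate 2 (edgeR adjusted p = 0.0328).

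PSME4 encodes the activator best known for the removal of acetylated histones, and its transcript of 7250 nucleotides is among the longest of the list. It stood at 110.4, 137 and 143 CPM in vehicle, 155, 156 and 153 at the low dose, 165, 162 and 157 in the medium-dose libraries, and 156, 129.8 and 162 at the high dose. All low-dose and medium-dose libraries lay above the vehicle libraries, and so did high-dose replicates 1 and 3. The log2 fold change was 0.20 ± 0.10 at the high dose (edgeR adjusted p = 0.316), and 0.29 ± 0.08 without high-dose replicate 2 (adjusted p = 0.019). Vehicle replicate 1 was the lowest library of all, and with both libraries left out the value was 0.18 (edgeR adjusted p = 0.0141).

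PSMF1, an inhibitor of the core, stood at 119.6, 117 and 118 CPM in vehicle, 119.7, 120.0 and 115 at the low dose, 122.8, 117 and 124 in the medium-dose libraries, and 131, 115 and 125 at the high dose, with a log2 fold change of 0.06 ± 0.06, and of 0.11 ± 0.05 without high-dose replicate 2. The summed CPM of the 3 regulators was 489.9, 507 and 522 in vehicle, 549, 542 and 532 at the low dose, 566, 567 and 563 in the medium-dose libraries, and 575, 569.7 and 577 at the high dose. This sum was higher in every treated library than in every vehicle library, and high-dose replicate 2 did not stand out in it. The single genes did differ in that library, in opposite directions. PSME3 was above high-dose replicates 1 and 3 (325 against 288 and 289.6 CPM), and PSME4 (129.8 against 156 and 162) and PSMF1 were below them. The sum of the core subunits ranged from 2228 to 2717 CPM in vehicle and was 2106, 3560 and 2125 at the high dose. Of the members that are no subunits, PSMC3IP, a cofactor of meiotic recombination, stood at 12.3, 12.1 and 12.5 CPM in vehicle, 11.1, 11.3 and 13.4 at the low dose, 15.7, 14.5 and 12.8 in the medium-dose libraries, and 13.9, 16.8 and 12.9 at the high dose (0.23 ± 0.12, and 0.12 ± 0.10 without high-dose replicate 2). PSME3IP1, which binds PSME3, stood at 72.4, 66.0 and 70.6 CPM in vehicle, 65.4, 71.8 and 70.6 at the low dose, 72.7, 73.7 and 70.1 in the medium-dose libraries, and 73.4, 72.8 and 70.5 at the high dose (0.05 ± 0.06 in both fits). The medium-dose and high-dose libraries of PSMC3IP lay above the vehicle libraries, and those of PSME3IP1 overlapped them.

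**Figure D5:**
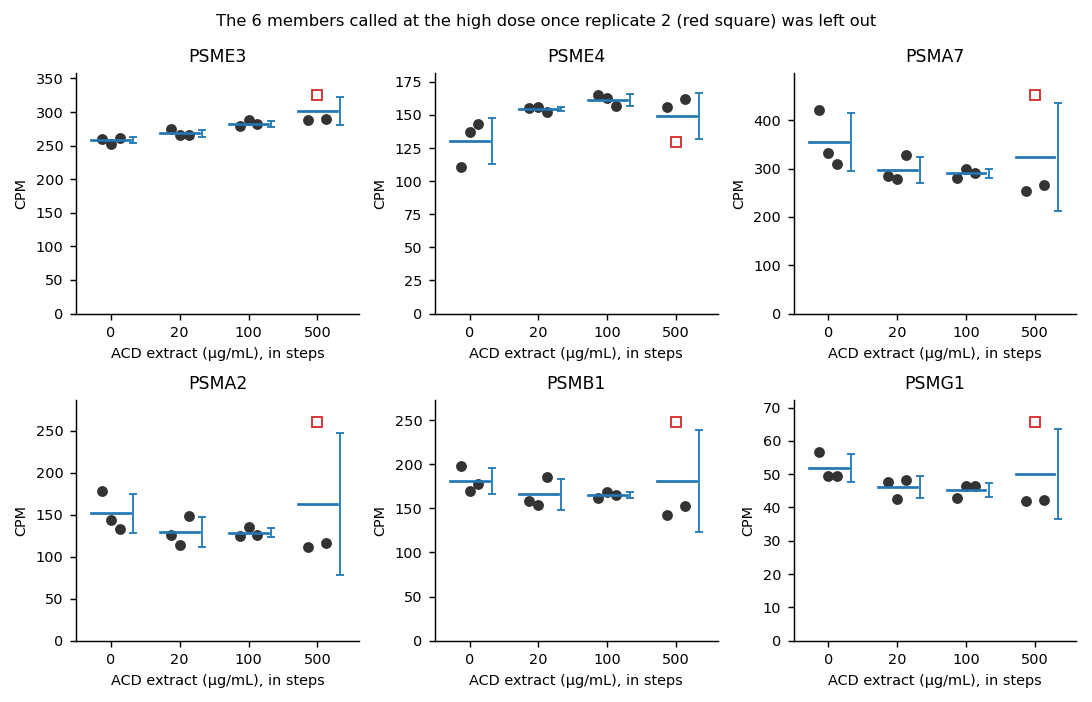
CPM of the 6 members that passed the test at the high dose without high-dose replicate 2, over vehicle (0) and the doses in µg/mL, with points for libraries, a red square for high-dose replicate 2, lines for means of 3 and bars for SDs. PSME3 rises by group from 253 to 261 CPM in vehicle to 288 to 325 CPM at the high dose, PSME4 is higher in high-dose replicates 1 and 3 than in vehicle, and PSMA7, PSMA2, PSMB1 and PSMG1 are lower there.

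The lower doses were compared with the same vehicle libraries, and they share them with the high dose. At the low dose none of the 48 members passed edgeR's test, where 0.124% of all genes did. An unadjusted p under 0.05 was seen in 2 members, DESeq2 on all libraries called 0, and the median log2 fold change was -0.02. High-dose replicate 2 is in neither group here but enters the shared fit and the filter, and without it the count was again 0 (2.03% of all genes), with 7 at an unadjusted p under 0.05. At the medium dose 0 members were called by edgeR (1.01% of all genes) and 0 by DESeq2 on all libraries, with 1 at an unadjusted p under 0.05 and a median of -0.01. With high-dose replicate 2 left out, PSME4 was called at the medium dose, at 0.31 ± 0.07 (edgeR adjusted p = 0.0163), where 6.87% of all genes were. The members' median turned positive at both doses without vehicle replicate 1, to 0.03 at the low and 0.05 at the medium dose. The core median was -0.07 at the low and -0.05 at the medium dose, the cap median 0.01 and 0.03, and the immunoproteasome median 0.01 and 0.03.

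In the test for a linear trend over the dose ranks, 1 member passed, PSME3, with 0.07 ± 0.02 on the log2 scale per step (edgeR adjusted p = 0.0426), where 5.74% of all genes passed. The call was lost when any 1 of the 11 libraries other than high-dose replicate 2 was left out, with values of 0.08 per step and adjusted p-values of 0.0575 to 0.115. With that library left out, 7 members passed (17.5% of all genes). PSMA2, PSMA7, PSMB1, PSMB6 and PSMG1 were lower, with -0.09 to -0.14 per step (8.64% of all genes), and PSME3 and PSME4 were higher, with 0.06 and 0.10 per step (8.87%). Between the high and the low dose, 0 members passed with all libraries (2.98% of all genes; 2 at an unadjusted p under 0.05) and 0 without high-dose replicate 2 (7.29%; 5). Between the high and the medium dose, the counts were 0 (0.891% of all genes; 0 at an unadjusted p under 0.05) and 0 (2.12%; 7). DESeq2 on all libraries called 0 in both. A fit without high-dose replicate 2 and vehicle replicate 1 was added once the data had been seen. In it, edgeR called PSMA7 and PSMB6 lower at the high than at the low dose, where 11.6% of all genes were called. PSMD1 was called lower at the high than at the medium dose, where 4.03% of all genes were called.

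Members whose libraries did not overlap with vehicle were also counted. At the high dose, 3 members were higher in every library than in every vehicle library (PSMC3IP, PSMD3 and PSME3; 10.5% of all genes) and 0 were lower (11.5%). Counting only high-dose replicates 1 and 3, 5 were higher (25.2% of all genes) and 20 were lower (25.2%), and these 20 were 41.7% of the members. At the medium dose, 6 were higher (14.5%) and 4 lower (14.1%), and at the low dose 3 were higher (11.4%) and 3 lower (9.61%). PSME3 was among the higher members at each dose, and PSMG1 and PSMG3 among the lower ones at the low and the medium dose.

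Proteasome genes with other symbols were looked up in a list of 22. SQSTM1, the receptor that delivers ubiquitinated proteins to autophagy, was the only one called with all libraries at the high dose (5.77% of all genes). It stood at 403, 359 and 354 CPM in vehicle and at 474, 479.9 and 472 at the high dose, with a log2 fold change of 0.35 ± 0.07 (edgeR adjusted p = 0.0101). All high-dose libraries lay above all vehicle libraries. Further genes of this list passed the test with high-dose replicate 2 left out (18.7% of all genes). ECPAS, an adaptor of the proteasome, rose by 0.34 ± 0.06 on the log2 scale (edgeR adjusted p = 0.00085). SEM1, the smallest cap subunit, fell by 0.37 ± 0.10 (adjusted p = 0.0174). UCHL5, which trims ubiquitin at the cap, and the shuttle receptors RAD23B and UBQLN1 rose by 0.18 to 0.21. POMP, the maturation factor of the core, stood at 378, 352 and 332 CPM in vehicle and at 305, 578 and 316 at the high dose, so that it too was highest in high-dose replicate 2 and was not called in either fit.

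Lists of pathways linked to the proteasome were read in the same fits. Of 15 NRF2 targets, 14 were called higher at the high dose (2.82% of all genes were), with a median log2 fold change of 0.73, and 7 were called higher for the medium (0.572%) and 0 for the low dose (0.0715%). Without high-dose replicate 2 the counts were 14, 12 (3.62% of all genes) and 0 (0.97%). GCLC, SLC7A11, AKR1B10 and ME1, which serve glutathione synthesis, cystine uptake, aldehyde reduction and NADPH supply, rose by 0.77, 1.203, 1.13 and 0.73 on the log2 scale. NQO1, a quinone reductase, stood at 535, 478 and 497 CPM in vehicle and at 773, 1230 and 788 at the high dose. GCLM, the regulatory subunit of glutathione synthesis, rose by 0.75 ± 0.09, and TXNRD1, a thioredoxin reductase, by 0.72 ± 0.07. The list of NRF2 targets was also shown by earlier results of these data and is not independent evidence of its direction. The 15 tested members with the core letters of the antioxidant response element had a median log2 fold change at the high dose of 0.08, and the 27 with a window but without the letters had a median of 0.13. With high-dose replicate 2 left out these medians were -0.09 and -0.10. In the stricter form, with A after the last letter, the order with all libraries was the other way. The median was 0.115 in the 9 tested members with the letters and 0.104 in the 33 without them. These were -0.09 and -0.10 with high-dose replicate 2 left out.

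Among the factors themselves, 1 of 9 control genes was called at the high dose with all libraries (5.77% of all genes). This was MAFF, a small partner of NRF1 and NRF2, which rose from 12.9 ± 0.922 to 16.04 ± 0.612 CPM (SD, n = 3; log2 fold change 0.32 ± 0.08, edgeR adjusted p = 0.0452). NFE2L1 stood at 224, 241 and 236 CPM in vehicle and at 278, 190.1 and 279 at the high dose. It was called without high-dose replicate 2, at 0.25 ± 0.06 (edgeR adjusted p = 0.00972), and with all libraries its value was 0.09 ± 0.12. NFE2L2 was not called at the high dose in either fit (0.23 ± 0.08 and 0.16 ± 0.07), and was called at the medium dose without high-dose replicate 2 (0.22 ± 0.06, edgeR adjusted p = 0.0302).

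Of the 18 tested genes of the interferon response, 0 were called by edgeR against vehicle at any dose in either fit. The shares of all genes called are those given for the immunoproteasome. At the high dose with all libraries, 2 of the 18 had an unadjusted p under 0.05. Between the high and the low dose, 3 were called lower with all libraries (1.54% of all genes) and 3 without high-dose replicate 2 (3.35%), with medians of -0.37 and -0.48 on the log2 scale. Between the high and the medium dose, 0 were called with all libraries and 1 was lower without that library (0.785%). Of the 16 class I antigen presentation genes only TAP2, a subunit of the peptide transporter, was called with all libraries at the high dose (0.38 ± 0.07, edgeR adjusted p = 0.00781), where 5.77% of all genes were. Its partner TAP1, which lies beside PSMB9 in the genome, had a value of 0.11 ± 0.10. CANX was called in addition without high-dose replicate 2 (18.7% of all genes). A list of 11 genes linked to NF-kB, whose inhibitor the proteasome degrades, held feedback genes and chemokines. It too was chosen with earlier results of these data known. Of its genes, 7 were called higher at the high dose, 5 at the medium and 1 at the low dose. Without high-dose replicate 2 the counts were 9, 7 and 4. The shares of all genes called higher are those given for the NRF2 targets, and 9.83% at the high dose without that library. The called genes with the smallest p were the chemokines CXCL1, CCL20, CXCL8 and CXCL2. CXCL1 rose from 1.64 ± 0.293 to 26.8 ± 6.72 CPM (log2 fold change 4.04 ± 0.19, edgeR adjusted p = 1.12e-07), and the value was 3.84 ± 0.12 without high-dose replicate 2.

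Reads shared between copies could blur single members. The table lists 44 pseudogenes of these symbols, of which 16 had a count, and together they held 0.119% of the CPM of the members. The highest, PSMC1P1, had a mean of 5.61 CPM beside 71.9 CPM for PSMC1 in vehicle. In 20 members at least 1 library had a fractional expected count, which arises when reads are divided between genes or copies. PSMA2 and PSMB10 were among those with fractions in all 12 libraries, whereas PSMA7, PSMB1, PSMG1 and PSME4 had none. The annotation places a gene on the opposite strand of 25 members and a gene on the same strand over 12. The library kit marks the strand, and the strand setting of the counting is not given in the sources used here, so reads of such partners may be included.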

How the data were processed

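RNA of HT29 cells was sequenced as 12 libraries by the authors with a directional kit and paired-end reads. By their methods and the submitters' processing notes, reads were checked with FastQC 0.11.9, trimmed with Trim Galore 0.6.5, aligned to GRCh38 with STAR 2.7.3a and counted with RSEM 1.3.3. The methods give other versions of Trim Galore and STAR. The deposited values are the authors' expected counts per gene ID, not normalized and not pooled. Here they were rounded to whole numbers. Depth ranged from 15941255 to 33866644 expected counts, which sets the precision of low members such as PSMB9.

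The test was edgeR 4.0.16 (R 4.3.3; filterByExpr, TMM, robust quasi-likelihood fit) with the 4 groups as terms and Benjamini–Hochberg adjustment over all genes tested. Members were called at an adjusted p under 0.05, and DEGs also had a fold change over 1.5. Without high-dose replicate 2, 15674 genes were tested. CPM used the TMM scaling, and log2 CPM a prior count of 2. Levels per kilobase used transcript lengths of GENCODE release 44, which also gave the biotypes, since the table holds none. Of the IDs with a count, 98.1% were found there. Ratios used scipy 1.17.1. Alternatives used DESeq2 1.42.0, other filters and scalings, the replicate number as a block, an offset for transcript length and GC content (mgcv 1.9.3) and each library left out in turn. Scripts were tested on simulated data.

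Values in every library are given for the immunoproteasome, the 3 constitutive catalytic subunits and, in each other class, the members with the highest and lowest log2 fold change at the high dose. From the other lists, called genes are named, at most 4 a list. Both motifs and their 2 forms, PSMA2, PSMB1, PSMG1, PSME4, PSMD3, NQO1, GCLM, TXNRD1, UCHL5, RAD23B, UBQLN1, CD68 and each non-member named without a call were picked with values in view. Members and lists were chosen with earlier results of these data known. Of 115 list symbols, 112 were found, and 1 result is not reported here.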

Additional observations from a re-analysis of the deposited data

How the results depend on the processing

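With all libraries, 0 members were called at the high dose. The count was 1 with DESeq2 on all libraries (PSME3; 8.46% of all genes), 5 with the offset for transcript length and GC content (PSMA1, PSMA3, PSMA6, PSME3 and PSME4, all higher; 14.2% of all genes) and 5 with that offset and the replicate block (11.7%). Leaving out 1 library in turn gave 0 to 6 members, and the 6 came without high-dose replicate 2, where PSMA2 turned to -0.41 (edgeR adjusted p = 0.0444). Over these fits PSMA2 ranged from -0.41 to 0.31. The median log2 fold change of the members then lay between -0.10 and 0.18. At the medium dose, where 0 were called, DESeq2 on vehicle and this dose alone gave 2 (PSMA7 and PSME4; 5.27% of all genes), the offset 2 (3.06%), the offset with the replicate block 2 (2.35%), and 1 library left out in turn 0 to 1. For the dose trend, where 1 was called, the count was 0 without a filter on low counts (2.17% of all genes), 0 with the replicate block (3.85%), 5 with the offset (13%), 5 with the offset and the replicate block (10.3%), and 0 to 7 with 1 library left out in turn. The replicate block left 0 members called at each dose. The members' median at the low dose, -0.02, was 0.03 without vehicle replicate 1 and 0.05 with the offset, and at the medium dose, -0.01, it was 0.05 and 0.06.

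Alternatives that combine these were added once the data had been seen. With high-dose replicate 2 and vehicle replicate 1 both left out, 5 members were called at the high dose (17.5% of all genes), 2 at the medium dose (5.68%), 4 in the trend (15%), 2 between high and low dose (PSMA7 and PSMB6, both lower; 11.6%) and 1 between high and medium dose (PSMD1, lower; 4.03%). With high-dose replicate 2 left out and the offset, 7 were called at the high dose (22.7% of all genes), 10 at the medium dose (11.6%), 4 at the low dose (4.75%), 8 in the trend (20.2%) and 1 between high and low dose (PSMB10, lower; 11.9%), and the medians of the members and of all genes at the high dose were both 0.00. PSME3 was called at the high dose in 6 of 23 alternatives, PSME4 in 5, PSMA7, PSMG1, PSMA1, PSMA3 and PSMA6 in 3 each, PSMB1 in 2 and PSMA2 in 1. The cause of these changes was not tested. The direction of PSME3 and PSME4 was the same in all 23. The ratios of the immunoproteasome subunits kept their direction in every alternative run for them, with ranges of 0.03 to 0.17 for PSMB8, 0.09 to 0.50 for PSMB9 and -0.16 to -0.03 for PSMB10 with 1 library left out in turn.

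No pairing of the libraries by replicate number was seen, which with 3 libraries a group does not exclude one. The correlation of the libraries' deviations from the group means lay between -0.49 and 0.37 in 18 pairs with the same number, and was over 0.1 in 5. Of 12 libraries, 4 correlated best with their own number. PSMB9, with 13 to 34 counts per library, is the member most limited by depth. With 3 libraries a group, an exact test cannot go below p = 0.1.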
